A study of Mus musculus with 12 samples.

Results

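The genes described here separate P80R B-ALL cells from every fetal liver library of the series. Members were chosen by these measured values: a gene was taken when those in all 4 leukaemias lay above, or all lay below, those in all 8 fetal libraries, and when the 4 leukaemia values spanned at most 4-fold, the span being the highest value plus 1 over the lowest value plus 1. The table held 21885 genes, and 2165 of them met this rule, 1044 of them higher and 1121 lower in the leukaemia. Because the rule was applied to these values, the differences between the leukaemia and the fetal cells are given as descriptions with no test. The tests that follow concern the difference between the 2 fetal groups, which the rule did not use to pick a direction.

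The libraries fell into 3 groups of 4. The P80R B-ALL libraries held GFP-positive B-cell acute lymphoblastic leukaemia cells with the PAX5 P80R mutation, sorted from primary recipient mice 1300, 1301, 1302 and 1308. The Pax5 KO libraries held cells at the common lymphoid progenitor to pre-pro-B stage from Pax5-/- fetal liver, and the Pax5 WT libraries held pro-B to pre-BI cells from Pax5+/+ fetal liver. All libraries were made from total RNA by SMART-Seq v4, which copies full-length transcripts. The donor cells, the promoter that drives the P80R mutant, the age and treatment of the recipients, and whether a fetal library came from 1 embryo or a pool are details not analysed here. Leukaemia and fetal cells differed at once in genotype, in transformation, in stage and in the animal they came from, and these cannot be told apart. In the text below leukaemia values are in the order of recipients 1300, 1301, 1302 and 1308, fetal values in the order of libraries 1 to 4, and all are scaled read counts.

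PAX5 is the transcription factor that commits lymphoid progenitors to the B lineage, switching on genes of the B-cell receptor pathway and switching off genes of other lineages. P80R changes a residue of its DNA-binding paired domain and recurs in human B-cell leukaemia. Epas1 encodes HIF-2α, a transcription factor that is destroyed when oxygen is plentiful and that partners with the same subunit as HIF-1α. Fetal liver B-cell progenitors divide rapidly, and cell division draws on mitotic kinases, on DNA replication and on the synthesis of membrane lipids.

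The leukaemia libraries were the shallower ones, with 24914250 to 29386256 reads against 33191950 to 43513852 in the fetal libraries, and they varied more, the log2 values of a tested gene having a median SD of 0.47 against 0.11 in Pax5 KO and 0.16 in Pax5 WT. Pax5 itself was no member, at 255 to 1316 in the leukaemias, 229.9 to 267 in Pax5 KO and 6194 to 7315 in Pax5 WT, and gene-level counts do not separate mutant from endogenous Pax5. Recipients 1300 and 1308 stood apart in markers of mature blood cells: the summed granulocyte and monocyte markers were at 172644 and 283243 there against 13874 and 5083 in recipients 1301 and 1302. Library 4 of Pax5 WT differed from its group in its long genes, and so did the leukaemias. Taking each tested gene's log2 deviation from its mean over all 12 libraries, the genes were split by exon length into 4 classes of equal size, and the median of the longest class less that of the shortest was -0.21 in that library and 0.29, 0.18 and 0.17 in the other Pax5 WT libraries.

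A value of 10 or more in 4 or more libraries was required of tested genes. Of the 12200 that met it, 1008 were members on the higher side, 8.26% of them, and 1112 on the lower side, 9.11%. A further 45 members did not pass this filter. Of the members that passed, 67 did so only through the leukaemia and 24 only through the fetal cells, so those had to differ. Without the limit on the span the shares would be 11.4% and 10.4%, and 383 genes above and 151 below all fetal values were left out by it. Just inside the limit lay Col6a2, a collagen chain, with a span of 3.96, and Acaca, the carboxylase that starts fatty acid synthesis, with 3.97. Just outside it lay Tspan7 with 4.02 and Fam174a with 4.02.

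Most members differed by modest amounts. The contrast, which is the mean log2(value + 1) of the leukaemias less the average of the 2 fetal group means, had a median of 1.06 among the higher members and -0.82 among the lower ones, where it was -0.06 over all tested genes. It reached 2 or more in size for 186 higher and 51 lower members. The gap between the nearest leukaemia and fetal values was under 1.2-fold for 483 higher and 693 lower members and at least 2-fold for 144 and 39. Large contrasts among the members were thus more numerous above the fetal range than below it. This count includes genes that passed the filter only through 1 side and had to differ. The 67 above and 24 below were counted by unlike criteria, as given above, so they do not compare the 2 sides.

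**Figure D1:**
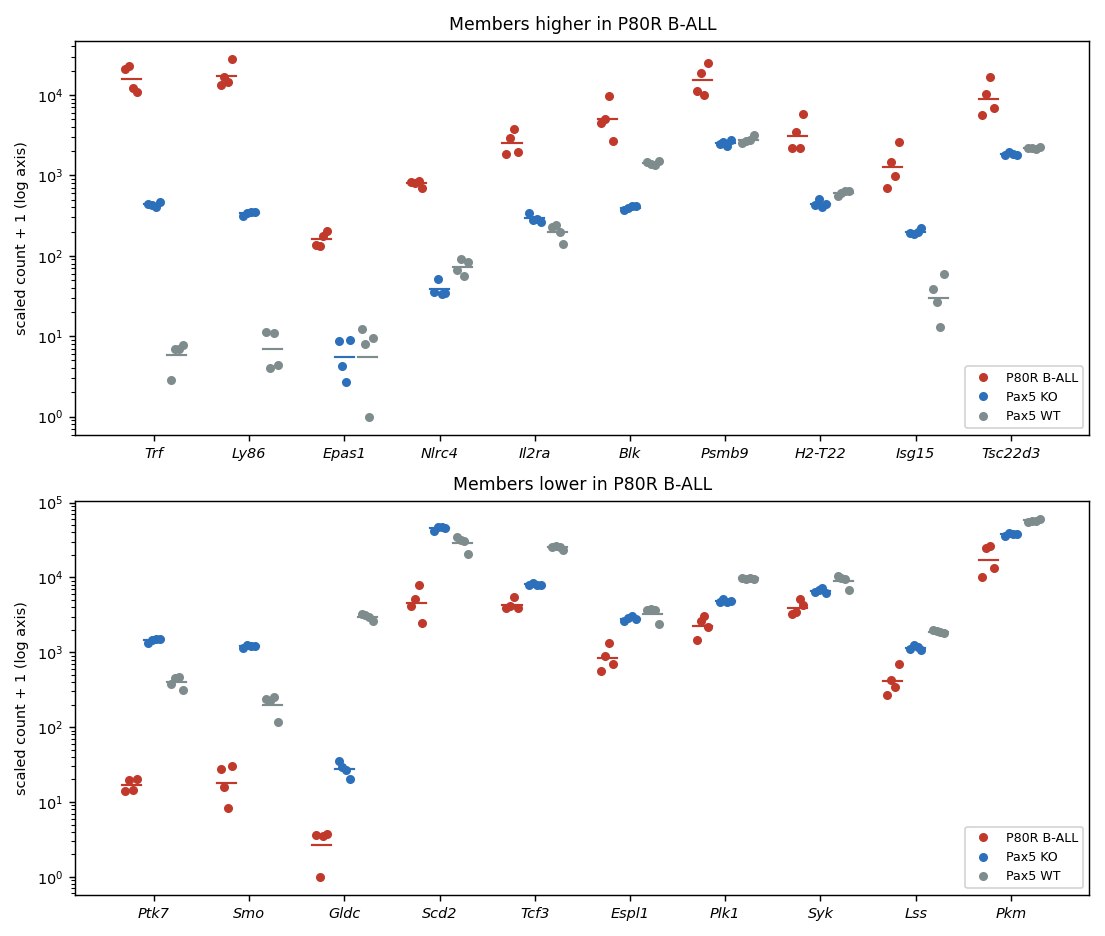
Scaled counts plus 1 on a log axis of 10 higher and 10 lower members in each of the 12 libraries; points are libraries in order of recipient or library number, and bars are the mean on the log scale. By the rule the 4 leukaemia points of every gene shown lie on one side of all 8 fetal points. The 2 fetal groups themselves are far apart for genes such as Gldc, Trf and Ly86.

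Genes far above both fetal groups included several of secretion, iron and immune sensing. Trf, which encodes the iron carrier transferrin, stood at 20845, 22910.2, 12112 and 10927 in the leukaemias, at 445, 431, 402 and 465 in Pax5 KO and at 1.89, 6.00, 5.93 and 6.88 in Pax5 WT. Ly86, which encodes MD-1, the partner of the Toll-like receptor relative RP105, stood at 13108, 16829.8, 14399 and 28249 in the leukaemias, at 311, 340.2, 351 and 349.6 in Pax5 KO and at 10.4, 3.00, 9.89 and 3.44 in Pax5 WT. Every leukaemia was more than an order of magnitude above every fetal library for both, and both differed between the fetal groups: Pax5 KO exceeded Pax5 WT by 6.24 ± 0.32 SE on the log2 scale for Trf (limma adjusted p = 6.48e-09) and by 5.63 ± 0.36 SE for Ly86 (adjusted p = 4.97e-08). Trf was also 1 of the hepatocyte markers, of which it made up nearly the whole summed level, since 7 of the 11 hepatocyte markers found in the table were at 0 in every leukaemia.

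Rasgrf2, an exchange factor that loads RAS with GTP, was at 479, 553, 739 and 328 in the leukaemias, at 12.9, 10.7, 12.0 and 13.0 in Pax5 KO and at 1.89, 0, 0 and 0 in Pax5 WT. In bulk libraries such values do not separate a larger share of cells with a transcript from more of it per cell, and this holds for every gene here. Gtsf1, a germline factor of transposon silencing, and Atp10b, a lipid flippase, were at 0 in all 8 fetal libraries. They were at 44.7 to 163 and 58.3 to 179 in the leukaemias, at least 45.0-fold and 44.6-fold higher against a floor of 3 reads per library. Both passed the filter only through the leukaemias and so had to differ. The largest contrast of a member belonged to a gene with no function name, Gm525, named after its values were seen, at 23124, 45549.7, 13217 and 35408 in the leukaemias and 5.00 to 63.2 in the fetal libraries.

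Several of the highest-ranked members are products of bone or tissue macrophages. Fcna, a ficolin of macrophages, Ctsk, the collagen-digesting protease of osteoclasts, and Ibsp, a bone matrix protein, were at 0 in every fetal library. Their leukaemia values were 356, 1062, 403 and 1342 for Fcna, 337, 819.6, 536 and 653 for Ctsk and 339, 345, 283 and 888 for Ibsp, at least 303-fold, 225-fold and 178-fold higher. Mmp13, a collagenase, was at 281, 596, 164 and 325 against 0 to 14.0, and the collagen gene Col3a1 at 90.7, 146, 55.8 and 126 against 0 to 8.67. The rule asked all 4 leukaemias to carry each of them, and each passed the filter only through the leukaemias. The bone matrix and osteoclast list, drawn up after values were seen, had 5 of 12 tested genes higher (41.7% beside 8.26% of all tested genes) and none lower. Of the 12, 8 passed the filter only through the leukaemias, and 2 had a contrast below 0. Its sum was 5646 to 31568 in the leukaemias, 1362 to 1530 in Pax5 KO and 8490 to 9525 in Pax5 WT.

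Markers of some other cell types lay above the fetal range as well. Of the macrophage markers none of 11 was a member but 8 lay above all fetal values, and their sum ran from 7182 to 37578 in the leukaemias, 2080.0 to 2361 in Pax5 KO and 42.0 to 82.2 in Pax5 WT. Stromal markers likewise had 7 of 8 above all fetal values, and erythroid markers 7 of 11, with 1 erythroid marker below them all. Over all tested genes 11.4% lay above all fetal values and 10.4% below. Of the tested markers in these 3 lists 5, 6 and 7 reached the filter only through the leukaemias and so had to differ. No macrophage marker was at 0 in the leukaemias, against 2 of the 13 in Pax5 KO and 8 in Pax5 WT. None of the macrophage, granulocyte, plasmacytoid dendritic or platelet markers was a member, and recipient 1308 had the highest leukaemia sum for each of these lists. The part of such cells in the members' values was not tested.

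**Figure D2:**
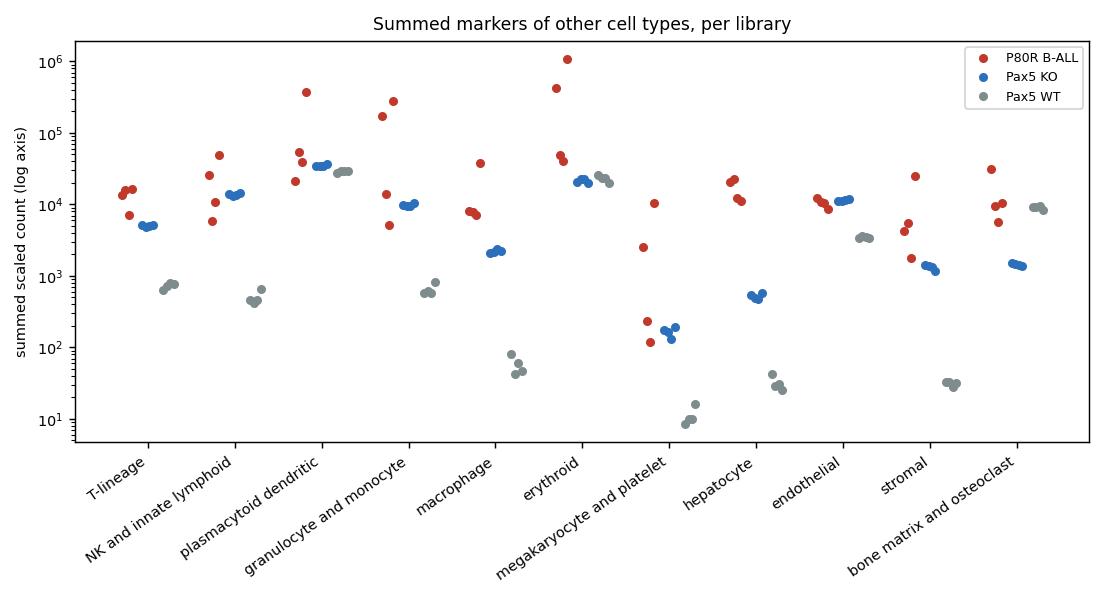
Summed scaled counts (log axis) of marker lists of 11 other cell types in each of the 12 libraries; points are libraries in order of recipient or library number. Macrophage sums in the leukaemias, at 7182 or more, lie above both fetal groups, and recipient 1308 is the highest leukaemia for macrophage, granulocyte, erythroid and stromal markers.

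A few genes were nearly level across the 4 leukaemias and clearly apart from the fetal cells. Nlrc4, an inflammasome sensor of bacterial flagellin, stood at 835, 807, 861 and 703 in the leukaemias, at 34.3, 50.1, 32.6 and 34.0 in Pax5 KO and at 65.2, 91.0, 55.4 and 81.7 in Pax5 WT, with a span of 1.22. Nod2, a sensor of bacterial cell wall fragments, had the narrowest span of the higher members with a contrast of at least 2, 1.09, at 39.4, 38.1, 36.0 and 37.4 against 1.72 to 22.8. Dennd2d, a regulator of RAB GTPases, was at 639, 774, 719.5 and 620.0 against 79.5 to 298. Recipients differed in these 3 genes by at most 1.25-fold, where the median span of the higher members was 1.72.

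Antigen presentation by MHC class I was the list with the largest share of higher members, 12 of 19 tested genes and none lower. That is 63.2% beside 8.26% of all tested genes. The median contrast was 1.48, against -0.06 over all tested genes. MHC class I molecules show peptides cut by the immunoproteasome to T cells. Psmb9, an immunoproteasome subunit, stood at 11252, 18837, 9995 and 24917 in the leukaemias, at 2467, 2619, 2339 and 2730.5 in Pax5 KO and at 2524, 2684, 2719.8 and 3165 in Pax5 WT. H2-K1, a classical heavy chain, was at 47612, 43567, 42303 and 86718 in the leukaemias against 9482 to 16344. H2-T22 and H2-Q4, non-classical heavy chains, were at 2176 to 5759.7 and 288 to 570.2 against 399 to 632 and 25.3 to 143, with the reserve that near-identical H2 genes can share reads. The lowest leukaemia was at least 2-fold above the highest fetal library for these 4 genes. Recipient 1308 was the highest leukaemia for all of them, and without it 13 genes of the list were members.

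Many interferon-response genes lay above the fetal range too, but recipient 1300 decided how many counted. In the list 10 of 46 tested genes were members (21.7% beside 8.26% of all tested genes) and none was lower (median contrast 2.50). Above all fetal values lay 20 of the 46, where 11.4% of all tested genes did. Without recipient 1300, 33 were members. Isg15, a ubiquitin-like protein induced by interferon, was at 692, 1464, 974 and 2596 in the leukaemias, at 189.6, 187, 196 and 219 in Pax5 KO and at 37.8, 26.0, 11.9 and 57.6 in Pax5 WT. Oasl1, a relative of the antiviral oligoadenylate synthetases, was at 448, 1621, 1428 and 759.7 against 0 to 44.8. Irgm2 and Tgtp2, interferon-inducible GTPases, were at 919 to 2091 and 1241 to 3363 against 81.1 to 545 and 148 to 559. Iigp1, a related GTPase that was no member, shows why the span mattered, at 68.4, 1618, 2079 and 3842 against 0 to 28.9. Of the 46 genes 34 were called higher and 8 lower in Pax5 KO against Pax5 WT by limma, where 35.7% and 29.1% of all tested genes were.

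Promoters of these 2 lists were searched, on either strand, for GAAA, any 2 bases and GAAA again, the core of the interferon-stimulated response element bound by STAT and IRF factors. In windows from 250 bases before to 50 after the RefSeq start (GRCm38.p6), it was found in 22 of 33 interferon-response and 5 of 17 MHC class I list genes with a table entry. Over all 9648 tested genes with an entry the share was 3.30%, among higher members 6.26% and among lower members 2.50%. A match describes letters and shows no binding. The 150 bases before the start are shown for 2 higher members, Isg15 (chr4:156200819-156200968, minus strand) and B2m (chr2:122147537-122147686, plus strand), the latter chosen after its values were seen because it is the shared light chain of MHC class I. Capitals mark the response element, of which Isg15 has 3 overlapping copies starting 78, 72 and 66 bases before the start and B2m has 1 starting 139 bases before it, and, in B2m, a CCAAT box read on the other strand.
Isg15: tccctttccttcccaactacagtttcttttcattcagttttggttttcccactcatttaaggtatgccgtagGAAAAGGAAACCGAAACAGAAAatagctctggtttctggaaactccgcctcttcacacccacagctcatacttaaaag
B2m: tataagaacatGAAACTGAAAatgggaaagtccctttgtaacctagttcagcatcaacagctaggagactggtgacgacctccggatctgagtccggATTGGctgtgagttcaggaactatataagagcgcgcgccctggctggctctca
B2m was at 158778, 156841, 135437 and 289566 in the leukaemias, at 71537, 73515, 74350.0 and 78218 in Pax5 KO and at 50049, 50078, 52246 and 64433 in Pax5 WT.

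Epas1 was the only member of the HIF subunit and oxygen sensor list, 1 of 11 tested genes, a share near the 8.26% of all tested genes. It stood at 134, 132, 176 and 205 in the leukaemias, at 7.61, 3.29, 1.71 and 7.95 in Pax5 KO and at 11.3, 7.00, 0 and 8.60 in Pax5 WT. The lowest leukaemia was 10.8-fold above the highest fetal library after adding 1, and the span was 1.55. The contrast was 4.86 and lay between 3.45 and 5.05 with TMM scaling, with 10 added in place of 1, and with each library left out. Epas1 passed the filter only through the leukaemias and so had to differ. Between Pax5 KO and Pax5 WT it was not called by limma (-0.02 ± 0.78 SE, adjusted p = 0.988). Its fetal values, 0 to 11.3, lay near the floor, so that comparison says little. Hif1a, which encodes HIF-1α, overlapped the fetal range, at 3749.8, 3495, 4272 and 3595 against 3959 to 5284.

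Lists of genes known to respond to low oxygen held members on both sides. Of 23 glucose transport and glycolysis genes 8 were lower members (34.8% beside 9.11% of all tested genes) and 1 was higher (4.35% beside 8.26%). The median contrast was -0.51, and 20 of the 23 contrasts were below 0. Pkm, the pyruvate kinase, stood at 10026, 24484, 26053 and 13466 in the leukaemias, at 35619, 38874, 38256 and 38604 in Pax5 KO and at 55849.5, 57572, 57398 and 60635 in Pax5 WT. Aldoa and Gapdh, glycolytic enzymes, were at 5193 to 8869 and 778 to 1856 against 15546 to 20795 and 2428 to 3824. The higher member was Slc2a3, the glucose transporter GLUT3, at 1712, 1243, 2422 and 2344 against 1093 to 1198 in Pax5 KO and 386 to 466 in Pax5 WT, where recipient 1301 lay just above the highest fetal library. Of 22 other hypoxia-response genes 2 were higher and 3 lower (9.09% and 13.6%, beside 8.26% and 9.11% of all tested genes). The higher ones were Plin2, a lipid droplet coat protein, and Bnip3l, a mitophagy receptor. Among the lower ones were Kdm3a, a histone demethylase (1012 to 1475 against 2395 to 3093), and Ero1l, an oxidase of the endoplasmic reticulum (765 to 1105 against 1345 to 2496).

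Among cytokine receptor, JAK and STAT genes 4 of 39 were higher members and none was lower (median contrast 0.04), which is 10.3% and near the 8.26% of all tested genes. Il2ra, which encodes CD25, the interleukin-2 receptor α chain, stood at 1863, 2947, 3725 and 1965 in the leukaemias, at 337, 281, 282 and 265 in Pax5 KO and at 224, 238, 197 and 139 in Pax5 WT. Ifngr1, a chain of the interferon-γ receptor, was at 12935, 23050.5, 20330.1 and 7597 against 2244 to 5409. Il7r, the receptor for the main growth factor of mouse B-cell progenitors, was at 12989, 8843, 9211 and 7427 against 5357 to 6235 in Pax5 KO and 3925 to 4115 in Pax5 WT, and Stat4 at 819.6 to 2464 against 415 to 651. The gap was 5.51-fold for Il2ra and 1.19-fold for Il7r, which was no member with CPM of the library total. Flt3, the receptor of early progenitors, was no member, because its leukaemia values of 1848 to 10056 lay between Pax5 WT (15.8 to 34.0) and Pax5 KO (12388 to 14303).

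A few lymphocyte signalling genes were members, on both sides. Blk, a B-lineage SRC-family kinase, stood at 4519, 5069, 9803 and 2665 in the leukaemias, at 365, 386, 414 and 410.3 in Pax5 KO and at 1469, 1367, 1333 and 1516 in Pax5 WT, and Lck, its T-lineage relative, at 7049, 13799, 5002 and 6363 in the leukaemias, at 2327, 2404, 2385 and 2379 in Pax5 KO and at 363, 418, 492 and 463 in Pax5 WT. For Blk the nearer fetal group was Pax5 WT and for Lck it was Pax5 KO. Syk, the kinase downstream of the pre-B-cell receptor, was lower at 3213, 3432, 5109.8 and 4284 against 6179.7 to 10485, and so was Vav1, an exchange factor in the same pathway (4487 to 6798 against 8985 to 10519). Blk, Syk and Vav1 were the only members among 31 tested genes of the pre-B-cell receptor and B-cell antigen list. That is 3.23% higher and 6.45% lower, beside 8.26% and 9.11% of all tested genes. Blk was no member with CPM of the library total. In the T-lineage list 2 of 12 tested genes were higher members (16.7%), Lck and Tcf7, a transcription factor of T-cell progenitors (337 to 1104 against 13.0 to 295). In the NK list 1 of 10 was (10.0%), Klrb1c, which encodes NK1.1 (207 to 804 against 3.44 to 36.2). In these lists 4 and 2 of the tested genes reached the filter only through the leukaemias. Cxcr4, the receptor that holds progenitors in the bone marrow, was at 3418, 4692, 3921 and 2973, the lowest value lying 1.03-fold above the highest in Pax5 WT, while Pax5 KO was at 763 to 942.

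The glucocorticoid list held 3 higher members and 1 lower among 14 tested genes (21.4% and 7.14%, beside 8.26% and 9.11% of all tested genes). Tsc22d3, which encodes the glucocorticoid-induced leucine zipper GILZ, stood at 5605, 10379, 16636 and 6839 in the leukaemias, at 1787, 1934, 1817 and 1795 in Pax5 KO and at 2194, 2158, 2138 and 2271 in Pax5 WT. Txnip, an inhibitor of thioredoxin and of glucose uptake, was at 6657, 2705, 4714 and 9989 against 1547 to 2067, and Nr3c1, the glucocorticoid receptor, at 5169.7, 3054, 3603 and 4814 against 1788 to 2593. The lower member was Dusp1, a phosphatase of MAP kinases that is also an immediate-early gene, at 234, 317, 362 and 634 against 940.1 to 1747.

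Small, abundant housekeeping proteins were frequent on the higher side, and this moved with exon length. Of the cytosolic ribosomal protein genes 32 of 77 were higher and none lower (median contrast 0.67). Of the mitochondrial ribosomal proteins 19 of 74 were higher and none lower (0.37). Among respiratory chain subunits 6 of 35 were higher and 2 lower (0.33), and among proteasome subunits 7 of 31 higher and 2 lower (0.27). The higher shares were 41.6%, 25.7%, 17.1% and 22.6%, beside 8.26% of all tested genes. The lower shares of the last 2 lists were 5.71% and 6.45%, beside 9.11%. Rps27, of the small ribosomal subunit, was at 35609.6, 36439.5, 25187 and 34925 against 10796 to 16061, Mrpl41, of the large mitochondrial subunit, at 4001 to 6423 against 1722 to 2517, and Cycs, cytochrome c, at 9066 to 12475 against 4139 to 6089.8. With each library's dependence on exon length and GC content removed, a step added after the data were seen, the medians became 0.16, 0.01, -0.19 and -0.21. Over all tested genes the median moved from -0.06 to -0.13, so the last 2 lists then lay near it. The cytosolic list then had 17 higher and 6 lower members, the mitochondrial list 10 and 14, the respiratory list 3 and 10, and the proteasome list 3 and 8. Reads of ribosomal protein genes can also be shared with their pseudogenes.

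Members on the 2 sides differed in length. The median exon length was 2948 bases among higher and 5379.5 among lower members, and 4454 over all tested genes, and the median GC content was 47.1%, 50.6% and 49.6%. In the shortest of the 4 length classes 15.4% were higher and 3.41% lower members, in the longest 3.54% and 11.3%. The excess of long over short genes by library was -0.39, -0.74, -0.05 and -0.57 in the leukaemias and 0.27 to 0.40 in Pax5 KO. Recipient 1301, with the lowest of these values, was the highest leukaemia for 436 of the 1008 higher members, and recipient 1302, nearest to the fetal libraries, was the lowest for 453. With length and GC removed 650 genes were higher and 1431 lower, so that 31.2% of the members were higher in place of 47.5%, and 564 higher and 852 lower genes were members both ways. Of the members named in the text, Gtsf1, Col6a2, B2m, Pkm, Bnip3l, Il7r, Blk, Cxcr4, Map2k2, Slc7a5, Tcf7 and Klrb1c were then no members.

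**Figure D3:**
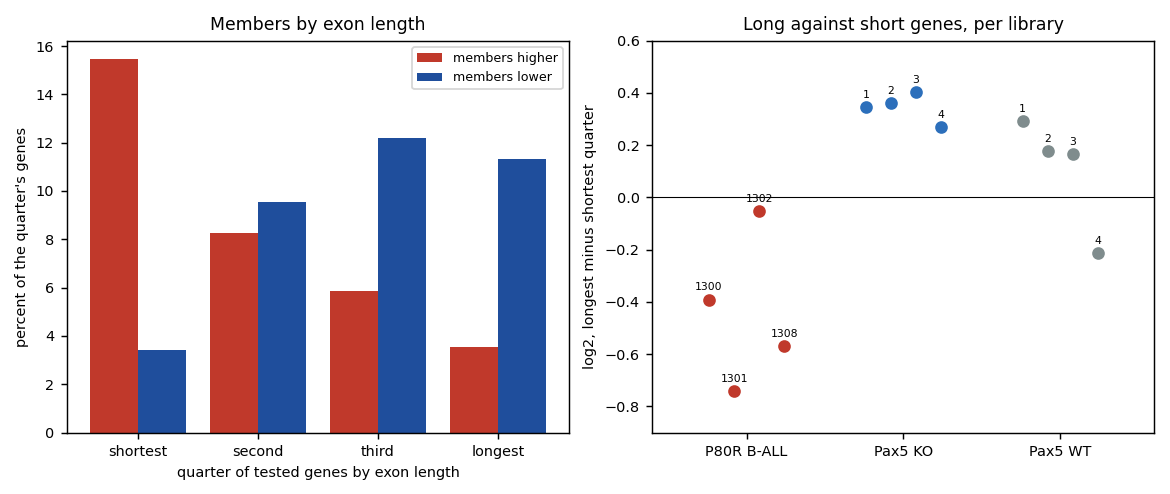
Left, percent of each of 4 equal classes of the tested genes, ordered by exon length, that were higher or lower members; right, median log2 deviation of the longest less the shortest class for each library, labelled by recipient or library number. The higher share falls from 15.4% in the shortest to 3.54% in the longest class, and the 4 leukaemias and library 4 of Pax5 WT lie below 0 on the right.

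The lower side was led by genes of development, signalling and lipid synthesis. Ptk7, a receptor-like pseudokinase of planar cell polarity, stood at 13.1, 18.5, 13.6 and 19.4 in the leukaemias, at 1320.2, 1466, 1516 and 1509 in Pax5 KO and at 375, 458, 459.7 and 311 in Pax5 WT. Smo, the signal transducer of the Hedgehog pathway, stood at 26.3, 14.8, 7.44 and 29.1 in the leukaemias, at 1150.4, 1252, 1207 and 1207 in Pax5 KO and at 235, 220.1, 249 and 118 in Pax5 WT. Both were highest in Pax5 KO and lowest in the leukaemias, with Pax5 WT between. Gldc, the glycine decarboxylase of the glycine cleavage system, had the opposite order of the fetal groups, at 2.63, 0, 2.48 and 2.77 in the leukaemias, at 34.3, 27.9, 25.7 and 19.5 in Pax5 KO and at 3206, 3193, 2996 and 2592 in Pax5 WT. Plxna2, a semaphorin receptor, was ordered in the same way, at 6.57, 7.38, 4.96 and 12.5 in the leukaemias, 26.7 to 58.3 in Pax5 KO and 464 to 644 in Pax5 WT. Casc4, a Golgi membrane protein, was alike in the fetal groups, at 56.5, 41.8, 18.6 and 42.9 against 773 to 1010.2. Armcx6 was at 0 in all 4 leukaemias and at 70.9 to 144 in the fetal libraries, at least 26.5-fold lower against a floor of 3 reads per library. Gldc and Armcx6 passed the filter only through the fetal libraries and so had to differ.

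Mitotic genes were the largest block of lower members. Of the G2 and mitosis list 27 of 44 tested genes were lower and none was higher (median contrast -1.02). Of the kinesins, a list drawn up after values were seen, 15 of 29 were lower (-1.18). The lower shares were 61.4% and 51.7%, beside 9.11% of all tested genes. Plk1, a kinase that drives entry into mitosis, stood at 1438, 2581, 3085 and 2166 in the leukaemias, at 4691, 5197, 4702 and 4793 in Pax5 KO and at 9869, 9578, 9816 and 9473 in Pax5 WT. Espl1, which encodes separase, the protease that releases sister chromatids, stood at 560.1, 899.6, 1344 and 691 in the leukaemias, at 2622, 2847, 3090.2 and 2755 in Pax5 KO and at 3660.1, 3731, 3647 and 2352 in Pax5 WT. Cenpe and Kif20a, kinesins of chromosome alignment and cytokinesis, were at 1113 to 2388 and 1181 to 2598 against 4042 to 8243 and 4339.6 to 7200.2. The highest leukaemia was recipient 1301 or 1302 for these 4 genes. By limma 41 of the 44 G2 and mitosis genes were lower in Pax5 KO than in Pax5 WT and none higher, so that for Plk1 the order was leukaemia, Pax5 KO, Pax5 WT from low to high (limma adjusted p = 9.63e-09 between the fetal groups). With length and GC removed 34 of the 44 were lower members.

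Mitotic promoters share 2 short elements: the cell-cycle homology region, TTTGAA, where the DREAM complex binds, and the CCAAT box of NF-Y. On either strand TTTGAA was found in 27 of 36 G2 and mitosis promoters with an entry and in 12.1% of all tested ones, and CCAAT in 27 of 36 and 39.0%. Over all lower members the shares were 15.1% and 43.8%. Both motifs were added to the search after values were seen. The 150 bases before the start follow for Espl1 (chr15:102296143-102296292, plus strand) and for Cdc20 (chr4:118437344-118437493, minus strand), the activator of the anaphase-promoting complex, chosen after its values were seen because its window holds both. Capitals mark TTTGAA, starting 27 bases before the start in Espl1 and 18 in Cdc20, and the CCAAT boxes, that of Espl1 read on the other strand.
Espl1: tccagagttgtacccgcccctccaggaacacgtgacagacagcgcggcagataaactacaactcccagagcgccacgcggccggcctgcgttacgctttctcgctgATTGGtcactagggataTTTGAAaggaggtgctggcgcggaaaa
Cdc20: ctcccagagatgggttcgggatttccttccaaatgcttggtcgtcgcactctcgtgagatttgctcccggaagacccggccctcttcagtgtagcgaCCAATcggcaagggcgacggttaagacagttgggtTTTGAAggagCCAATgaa
Cdc20 was at 2795, 6129.6, 5668 and 4079.7 in the leukaemias, at 6887, 7357, 7248 and 7195 in Pax5 KO and at 12722, 12664, 12784 and 14610.3 in Pax5 WT.

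DNA replication genes lay nearer to the fetal level. Of 40 tested 13 were lower members (32.5% beside 9.11% of all tested genes) and 1 was higher (2.5% beside 8.26%). The median contrast was -0.27. Chaf1a, a histone chaperone at the replication fork, was at 1332, 1809, 2791 and 1423 against 3456 to 5065, Mcm10, an initiation factor, at 1258 to 2479.9 against 3157 to 4231, and Mcm4, a helicase subunit, at 7495 to 16297 against 18113 to 22098. Uhrf1, which guides DNA methylation to new strands, was at 10483, 21724, 19608 and 11223 against 26685 to 35079.6, and Dnmt1, the maintenance methyltransferase, at 4891, 6756, 10546 and 5693 against 13148 to 21614. In the DNA methylation and Polycomb list 5 of 30 tested genes were lower members (16.7% beside 9.11% of all tested genes). Of the cyclins, CDKs and their inhibitors 2 of 23 were lower members (8.70%, where 9.11% of all tested genes were), Rb1 (499.6 to 1158 against 1229 to 2933) and E2f8 (759 to 1142 against 1199 to 2777), with gaps of 1.06-fold and 1.05-fold.

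Many lipid synthesis genes were lower in all 4 leukaemias. Cholesterol is made by a chain of enzymes that SREBP2 controls. Of the cholesterol synthesis and uptake list 14 of 26 tested genes were lower members and none was higher (median contrast -1.18). The lower share was 53.8%, beside 9.11% of all tested genes. Lss, lanosterol synthase, stood at 269.5, 427, 347 and 703 in the leukaemias, at 1108, 1263, 1170.1 and 1069 in Pax5 KO and at 1960.0, 1909.8, 1869.5 and 1804 in Pax5 WT. Recipient 1308 was the highest leukaemia for Lss. Fdps, the synthase of farnesyl diphosphate, was at 85.5 to 268 against 357 to 662, and Tm7sf2, a sterol reductase, at 54.1 to 114 against 154 to 324. Sqle, squalene epoxidase, was below all fetal values as well but missed the limit on the span (4.33).

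Of the fatty acid synthesis and elongation list, drawn up after values were seen, 12 of 20 were lower and 1 was higher (median contrast -1.60). These shares were 60% and 5%, beside 9.11% and 8.26% of all tested genes. Scd2, a desaturase that makes monounsaturated fatty acids, stood at 4099, 5178, 7853 and 2466 in the leukaemias, at 41896, 47624, 47434 and 45739.9 in Pax5 KO and at 34654, 31414, 30734 and 20417 in Pax5 WT. Elovl6, an elongase, was at 799, 669, 1542 and 1146 against 2382 to 2767 in Pax5 KO and 11561 to 12636 in Pax5 WT. Elovl4, which makes very long chains, was at 0 in all 4 leukaemias and at 4.93 to 64.3 in the fetal libraries, at least 5.79-fold lower. It passed the filter only through the fetal libraries and so had to differ. Fasn, fatty acid synthase, was no member, since recipient 1302 at 5854 exceeded library 4 of Pax5 WT at 4937, while the other fetal libraries were at 9081 or more. That library, with its deficit of long genes, was also the lowest fetal one for Scd2 and Acaca, and without it 1243 genes were higher and 1503 lower members.

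The sterol regulatory element, searched as TCACNCCAC on either strand after values were seen, was found in 1 of 19 cholesterol list promoters with an entry, and in 1.01% of all tested ones. CCAAT was in 16 of 19 of the same promoters. The 1 promoter with the sterol element belongs to Hmgcs1 (chr13:119690201-119690350, plus strand), the synthase at the head of the pathway, and its 150 bases before the start are shown because of that match. Capitals mark the sterol element, starting 137 bases before the start, and a CCAAT box on the other strand, starting 45 bases before it.
Hmgcs1: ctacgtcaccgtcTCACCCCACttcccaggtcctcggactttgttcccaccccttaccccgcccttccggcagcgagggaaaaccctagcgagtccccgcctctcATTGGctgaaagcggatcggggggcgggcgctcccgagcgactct
Hmgcs1, chosen after its values were seen, was at 2009, 3907, 1849.7 and 3158 in the leukaemias, at 4755, 5052, 5165 and 5189 in Pax5 KO and at 7809, 7304, 7426 and 7500.4 in Pax5 WT.

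Most genes that load transfer RNAs with amino acids were lower as well. Of the aminoacyl-tRNA synthetases, a list drawn up after values were seen, 14 of 20 were lower and none higher (median contrast -0.71). The lower share was 70%, beside 9.11% of all tested genes. Eprs, the glutamyl-prolyl enzyme, was at 6109.8, 6242, 11171 and 4208 against 13814 to 16116. In the serine, one-carbon and ATF4 list 4 of 22 were lower members (18.2% beside 9.11% of all tested genes). Slc7a5, the large neutral amino acid transporter, was at 1403, 2624, 3933 and 2581 against 4215 to 7740.1, and Shmt2, which feeds serine into mitochondrial one-carbon metabolism, at 4271 to 9205 against 9793 to 14706. Tfrc, the transferrin receptor, was lower at 5567, 9526, 8077 and 12099 against 19602 to 25932, the opposite side to its ligand gene Trf.

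Transcription factors of the B lineage gave 3 lower members of 30 tested, 10.0% beside 9.11% of all tested genes. Tcf3, which encodes the E2A proteins, stood at 3865, 4110.2, 5409 and 3847 in the leukaemias, at 8029, 8439.6, 7937 and 7965 in Pax5 KO and at 25386, 26603, 25664 and 23515 in Pax5 WT, with the leukaemias below Pax5 KO by a gap of 1.47-fold and far below Pax5 WT. Tcf12, another E protein, was at 2234, 2674, 2649.8 and 2765 against 3942 to 5722, and Runx1 at 2449, 2839, 3872 and 2076 against 4074 to 7813. Ebf1 was no member, at 6436, 7632, 11594 and 2333 against 5725 to 6639 in Pax5 KO and 17954 to 20222 in Pax5 WT. In the RAS and MAPK list 4 of 30 were lower members (13.3% beside 9.11%) and none higher, among them Nras (4518 to 5139.6 against 5667 to 7336) and the kinases Mapk3 and Map2k2, whose gaps were 1.04-fold and 1.01-fold. Map2k2 was no member with TMM scaling. Trp53, which encodes p53, was at 6824, 7008, 9539 and 7362 against 10892 to 14328. It was 1 of 2 lower members among 25 tested genes of the p53 list (8.0% beside 9.11%). Bid and Bad, death-promoting BCL2 relatives, were the 2 higher members among 17 tested genes of their list (11.8% beside 8.26%). They were at 2888 to 3738 and 1191 to 1642 against 1681 to 2307 and 885 to 1067.

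Immediate-early and heat-shock genes had 5 of 26 tested genes lower and 1 higher (median contrast -1.16). These shares were 19.2% and 3.85%, beside 9.11% and 8.26% of all tested genes. Ier2, an early response gene, stood at 1519.9, 1493, 1904 and 1878 in the leukaemias, at 11229.7, 11995, 12529.8 and 12349 in Pax5 KO and at 2832, 3054, 3030.2 and 2984 in Pax5 WT. Hspa1a, an inducible chaperone with a near-identical copy that can share its reads, was at 2.63, 7.38, 4.96 and 9.69 against 18.0 to 219. It passed the filter only through the fetal libraries and so had to differ. Egr1, an early growth response factor, was below all fetal values at 128, 82.5, 104 and 363 against 25244 to 27580.3 in Pax5 KO and 755 to 1144 in Pax5 WT, but missed the limit with a span of 4.36. Genes of the fetal programme were kept out in the same way. Lin28b, an RNA-binding protein of fetal haematopoiesis, was at 0, 0, 0 and 13.8 against 172 to 774, and Hmga2, a chromatin-binding protein, at 7.89, 0, 0 and 1.38 against 3447 to 4099 in Pax5 KO and at least 9.89 in Pax5 WT. The list had no member, with 3 of 14 below all fetal values, where 10.4% of all tested genes were.

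**Figure D4:**
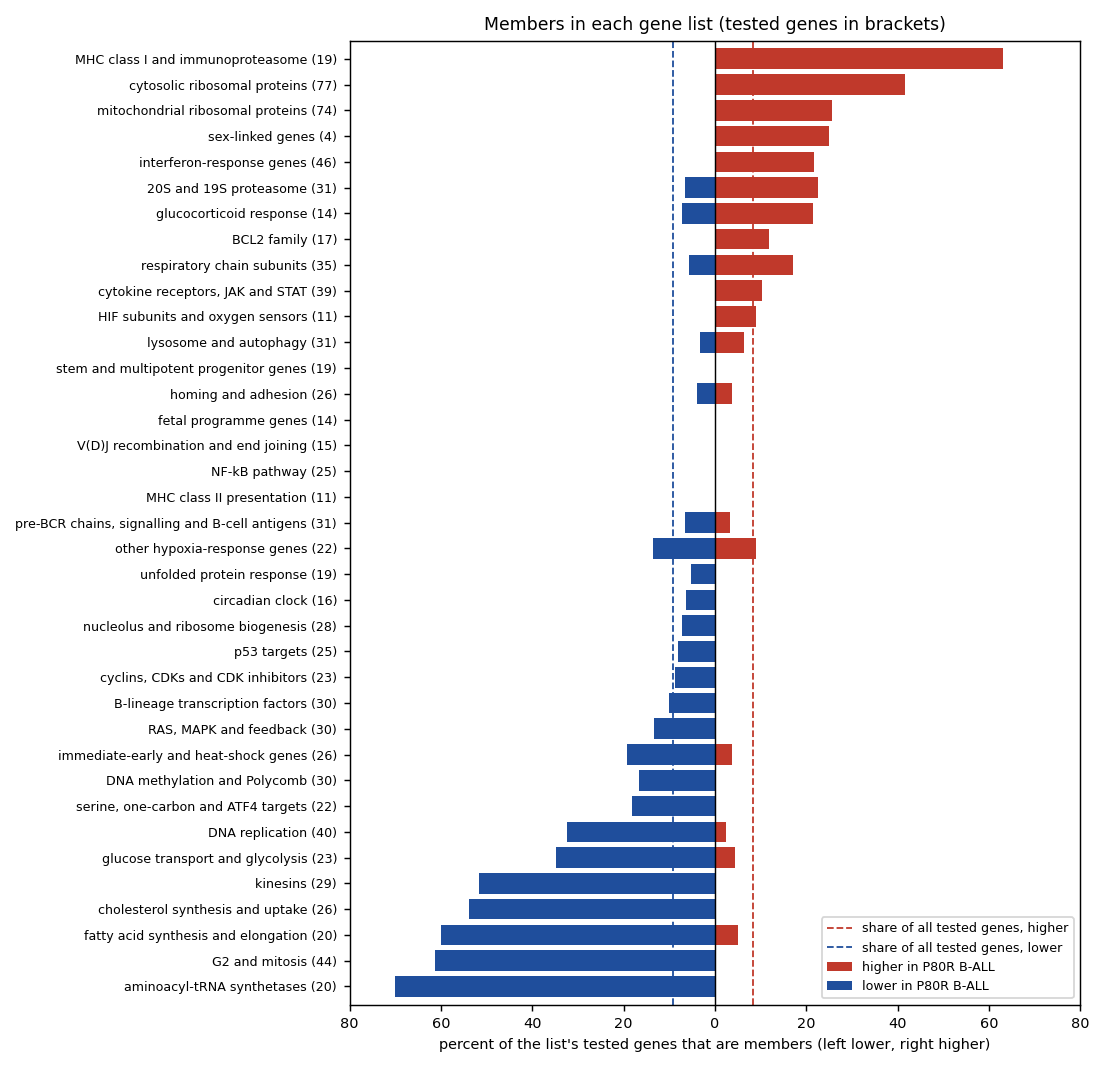
Percent of the tested genes of each gene list that were lower (left) or higher (right) members, with the number tested in brackets and the marker lists of other cell types left out; dashed lines give the share over all tested genes, 8.26% higher and 9.11% lower. MHC class I is the top bar and the tRNA synthetases the bottom one, and 5 of the lists shown have no member.

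Among the pathway lists, those with no member were stem and multipotent progenitor genes, V(D)J recombination, NF-κB and MHC class II besides the fetal programme. In MHC class II, 6 of 11 genes lay above all fetal values, where 11.4% of all tested genes did. Recipient 1308 held the span open: H2-Aa, a class II α chain, was at 617, 573, 1499 and 85258 against 0 to 49.0. Without recipient 1308, 5 of the MHC class II genes were members, as were 7 of the 11 macrophage markers. Asns, asparagine synthetase, is the matching case on the lower side, at 213, 12.3, 7.44 and 256 against 508 to 4833.

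The fetal groups were then compared with each other among the members. Limma on the 8 fetal libraries called 64.8% of all tested genes, 35.7% higher in Pax5 KO and 29.1% lower. Of the 1008 higher members 283 (28.1%) were higher in Pax5 KO, 218 (21.6%) were higher in Pax5 WT and 507 were not called. Of the 1112 lower members 202 (18.2%) were higher in Pax5 KO and 415 (37.3%) higher in Pax5 WT. The rule asks the leukaemia to clear both fetal groups, which favours genes whose fetal groups lie close together, so the smaller overall share of calls is no result. Among the lower members, the order leukaemia, Pax5 KO, Pax5 WT from low to high was thus more frequent than the order with Pax5 WT in the middle.

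Both orders are shown by members described above. Elovl6 (-2.26 ± 0.06 SE between Pax5 KO and Pax5 WT, limma adjusted p = 2.91e-11), Tcf3 (-1.64 ± 0.05 SE, adjusted p = 1.35e-10) and Gldc (-6.77 ± 0.16 SE, adjusted p = 8.12e-12) were intermediate in Pax5 KO. Ptk7 (1.87 ± 0.12 SE, limma adjusted p = 6.76e-08), Dusp1 (0.78 ± 0.07 SE, adjusted p = 1.03e-06) and Ier2 (2.01 ± 0.06 SE, adjusted p = 3.17e-11) were intermediate in Pax5 WT. On the higher side Blk (-1.85 ± 0.08 SE, limma adjusted p = 1.89e-09) had Pax5 WT in the middle, and Lck (2.46 ± 0.09 SE, adjusted p = 5.28e-10) had Pax5 KO there. Vav1 (-0.06 ± 0.05 SE, limma adjusted p = 0.365) and Psmb9 (-0.12 ± 0.08 SE, adjusted p = 0.188) were not called between the fetal groups. For each called gene in this paragraph all 4 libraries of 1 fetal group lay above all 4 of the other.

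**Figure D5:**
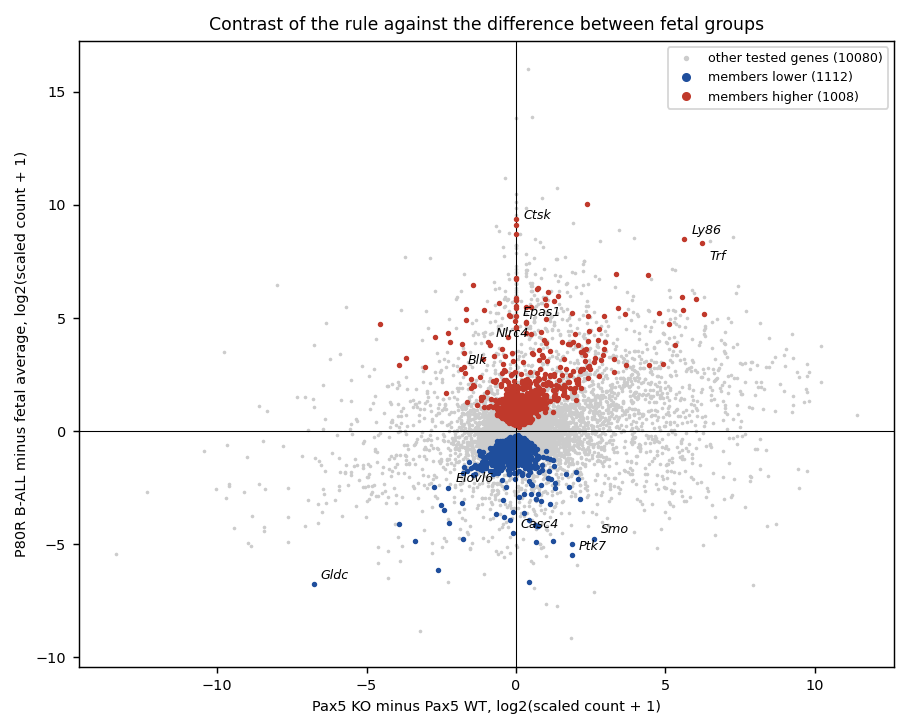
Contrast of the leukaemias against the fetal average (vertical, log2) and difference between Pax5 KO and Pax5 WT (horizontal, log2) for the 12200 tested genes, with higher members in red and lower members in blue. Members crowd around a fetal difference of 0 and thin out sideways, Trf and Ly86 lying far to the right above and Gldc far to the left below.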

How the data were processed

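RNA-seq values per gene were used from 12 mouse libraries in 3 groups of 4, as given by the labels' genotype and cell type. Per the submitters' processing notes, reads went through fastp, STAR 2.7.8a and featureCounts with the mm39 build. Strand setting and gene annotation are not named there. The signal values deposited by the authors are read counts after scaling. In each library whole counts had been multiplied by a single factor, from 0.722 to 1.38, since 100% of the values were whole multiples of the smallest positive one within 0.001. Reads recovered this way, 24914250 to 43513852 per library, were used for depth, for edgeR and DESeq2, and for floors of 3 reads, which cover counting error only. Symbols, exon lengths and GC content came from GENCODE M21 and matched 21780 of 21885 identifiers. Promoter windows came from RefSeq (GRCm38.p6), 1 per symbol.

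Values were analysed as log2(value + 1), in genes with 10 or more in 4 or more libraries. Pax5 KO was compared with Pax5 WT on the 8 fetal libraries with limma 3.58.1 (trend and robust, R 4.3.3), two-sided, Benjamini-Hochberg adjusted over all 12200 genes, threshold 0.05. The leukaemias were left out of that fit because of their larger spread. The labels do not say that libraries of a group came from separate animals, so p-values measure the spread between libraries, which may be technical. The limma fit and the member rule were tested on simulated data; edgeR, DESeq2 and the lowess step were not. The members and the 48 gene lists were chosen with earlier results of these data known, and 6 lists were added after values were seen. Named genes were Pax5, Epas1, Hif1a, Ebf1 and Flt3, the 12 largest contrasts per direction with a mean of at least 100 on the higher side and no provisional name, up to 4 members and 2 others per list, the 2 genes on either side of the span limit and the 5 narrowest spans per direction with a contrast of at least 2 in size. Some genes that this rule names are not reported here. Alternatives were TMM scaling (edgeR 4.0.16), CPM of the library total, other filters, pseudocounts, spans and gaps, DESeq2 1.42.0, leaving out libraries, and, added later, removing each library's lowess trend on exon length and GC content.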

Additional observations from a re-analysis of the deposited data

Results flagged for a closer look

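In each group of 4 libraries a value was singled out when its gap to the nearest other, over the range of the group on the log2 scale, passed Dixon's critical value of 0.829. The 106 genes made 318 groups, and groups with equal values throughout, such as those all at 0, gave no ratio. In the others 30 values passed, where chance gives about 1 group in 20. That share does not hold where a single positive value stands against zeros, since the ratio is then always 1. Library 4 of Pax5 WT gave 12 of the 30 values, 9 as the lowest and 3 as the highest of its group.

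Among the lowest values of that library, Espl1 stood at 2352 against 3647 to 3731 in the other Pax5 WT libraries, Fasn at 4937 against 9081 to 9931, Acaca at 875 against 1404 to 1507 and Smo at 118 against 220.1 to 249. E2f8 at 2076, Mcm10 at 3668, Nr3c1 at 1788, Nras at 5667 and Slc2a3 at 386 were lowest there too. Its highest values were H2-K1 at 10940.9, B2m at 64433 and Cdc20 at 14610.3. Library 1 of Pax5 WT stood out only at low levels, with Rasgrf2 and Col6a2 at 1.89 and Oasl1 at 7.56 where the other 3 were at 0, Col3a1 at 0.945 likewise, and Trf at 1.89 against 5.93 to 6.88.

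In Pax5 KO, library 1 was lowest for Gapdh at 2428 and Plin2 at 1093 and highest for Ebf1 at 6639, library 2 was highest for Nlrc4 at 50.1 and library 3 for Elovl4 at 12.0. Among the leukaemias, recipient 1300 was lowest for Tgtp2 at 1241 against 3253 to 3363, for Aldoa at 5193 and for Sqle at 682 against 2332 to 2961. Recipient 1308 was highest for H2-K1 at 86718, for Mapk3 at 1286 and for Lin28b at 13.8, where the other 3 were at 0. Recipient 1302 was lowest for Rps27 at 25187, and recipient 1301 for Gldc at 0.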

How the results depend on the processing

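The count of members depended most on the gap asked for and on which leukaemias were used. With a gap of at least 1.5-fold, 262 higher and 116 lower members were left, and without recipients 1300 and 1308 there were 2035 and 2070, since 2 leukaemias clear the fetal range more easily than 4. With length and GC removed 650 were higher and 1431 lower, and the cause was not tested. Leaving out 1 of the 12 libraries gave 1015 to 1524 higher and 1115 to 1748 lower members, the highest counts without recipient 1302. Lists with at least 25% of their tested genes among the members in 1 direction numbered 13, and 14 to 23 without 1 leukaemia, the most without recipient 1308 (21 without 1302). With TMM scaling 1076 were higher and 989 lower, 1981 of them the same genes in the same direction, and with CPM of the library total 850 and 1363, 800 higher and 1053 lower genes being members both ways. Of the members named in the text, Acaca and Map2k2 were no members with TMM, and Acaca, Slc2a3, Il7r, Blk, Cxcr4 and Klrb1c were none with CPM. No contrast of a member named in the text changed sign under TMM, a pseudocount of 10 or any library left out. Between Pax5 KO and Pax5 WT limma called 1118 members, 989 to 1220 without 1 fetal library, and 505 when all 12 libraries shared the spread, because the leukaemias' larger spread enters that fit. The replicate block gave 1136. The replicate numbers did not pair the libraries, the correlation of same-numbered deviations being 0.00493 to 0.0616, and library 4 was the only number that correlated best with itself. edgeR's quasi-likelihood test called 1125 and DESeq2 1171. Depth limits the low end: a value under 4.15 is fewer than 3 reads in recipient 1308.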

Other observations

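Members were spread over all chromosomes. Among tested genes of chromosome 17, which carries the H2 genes, 11.9% were higher and 11.0% lower members, on chromosome 19 5.24% and 12.5%, and on the X chromosome 5.0% and 10.8%.

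Lower members held the E2F site, searched as TTTCCCGC or TTTGGCGC on either strand, in 5.65% of their promoter windows, against 3.18% of all tested genes and 2.29% of higher members. In the DNA replication list 10 of 31 windows held it. ACGTG, the core of the hypoxia response element, was in 182 of 831 higher and 276 of 920 lower members' windows and in 25.5% of all.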
